A study of Homo sapiens with 2 samples.

Results

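Ribosomal RNA processing factors are the nucleolar proteins that cut, fold and chemically modify the precursor of ribosomal RNA on its way into ribosomes. The 51 genes described here were taken by symbol from a fixed list, and all 51 were found among the 61806 genes of the deposited table. Their polyadenylated RNA was measured in SAS cells, an established human tongue carcinoma line of wild-type genotype per the labels. 1 library came from cells given an siRNA (labelled si2) against COL17A1, the collagen XVII gene of hemidesmosomes, and 1 from cells given a negative control siRNA, each harvested 48 hours after Lipofectamine transfection. A single siRNA and a single cell line thus stand for the knockdown.

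In human cells RNA polymerase I makes a long precursor that holds the 18S, 5.8S and 28S ribosomal RNAs, separated by spacers. The small subunit processome, built from the UTP-A, UTP-B and UTP-C subcomplexes, the U3 small nucleolar RNA and many single proteins, assembles on the nascent precursor and prepares the 18S part, while other factors excise and mature the large subunit RNAs. Box C/D and box H/ACA small nucleolar ribonucleoproteins (snoRNPs) methylate riboses and convert uridines to pseudouridine, guided by small nucleolar RNAs (snoRNAs). Growing tumour cells keep this pathway active, and MYC is a well-known activator of many of its genes.

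The COL17A1 siRNA library held 21601195 counts and the control library 15980152 counts. COL17A1 itself had 411 counts (18.8 CPM, the count scaled to library size) in COL17A1 siRNA cells, against 3116 counts (198 CPM) in control cells, a log2 ratio of -3.39 with a 95% interval of -3.55 to -3.25. All 5 epithelial markers were detected (KRT5, KRT14, CDH1, EPCAM and TP63), with a summed level of 2342 CPM in COL17A1 siRNA cells and 2023 CPM in control cells. KRT5 was at 1010 CPM in COL17A1 siRNA cells and 666 CPM in control cells. Only TP63 was lower in COL17A1 siRNA cells, at 328 CPM against 453 CPM in control cells. The 5 fibroblast markers summed to 2.24 and 1.46 CPM, the 4 immune markers to 5.34 and 3.17 CPM and the 3 endothelial markers to 0.959 and 0.951 CPM in COL17A1 siRNA and control cells, with COL3A1, PTPRC, CD3E and PECAM1 at 0 counts in both libraries. Of the immune sums CD14 held 5.21 CPM in COL17A1 siRNA cells and 2.98 CPM in control cells. With 1 library per group there is no replicate check, so ratios describe these libraries, and intervals cover counting error only. Values are shares of each library, so fewer transcripts per cell and fewer cells that express a gene cannot be told apart.

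Transcripts of 18 ribosomal RNA processing factors were lower, and none was called higher, in COL17A1 siRNA cells. The lower ones included RRP7A, TSR1, NOP2 and WDR43 at 2-fold or more, 4 of 6 UTP-A subunits and the abundant nucleolin gene NCL. A gene was called at 1.5-fold or more where its 95% interval excluded a ratio of 1. By this rule 18 of 51 factors were lower and 0 were higher, beside 11.7% of all 13375 tested genes lower and 12.2% higher. The median log2 ratio of the factors was -0.39, against 0.03 over all tested genes, and 38 of the 51 lay below 0. At 2-fold, 4 factors were lower and 0 higher, beside 3.6% of tested genes lower and 3.04% higher. All 51 passed the filter of a mean of at least 1 CPM. The factors took 0.602% of all counts in COL17A1 siRNA cells (exact binomial interval 0.599% to 0.605%) and 0.773% in control cells (0.768% to 0.777%). NCL and NPM1 alone made up 0.299% in COL17A1 siRNA cells and 0.382% in control cells, and the other 49 factors 0.303% in COL17A1 siRNA cells and 0.391% in control cells.

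**Figure D1:**
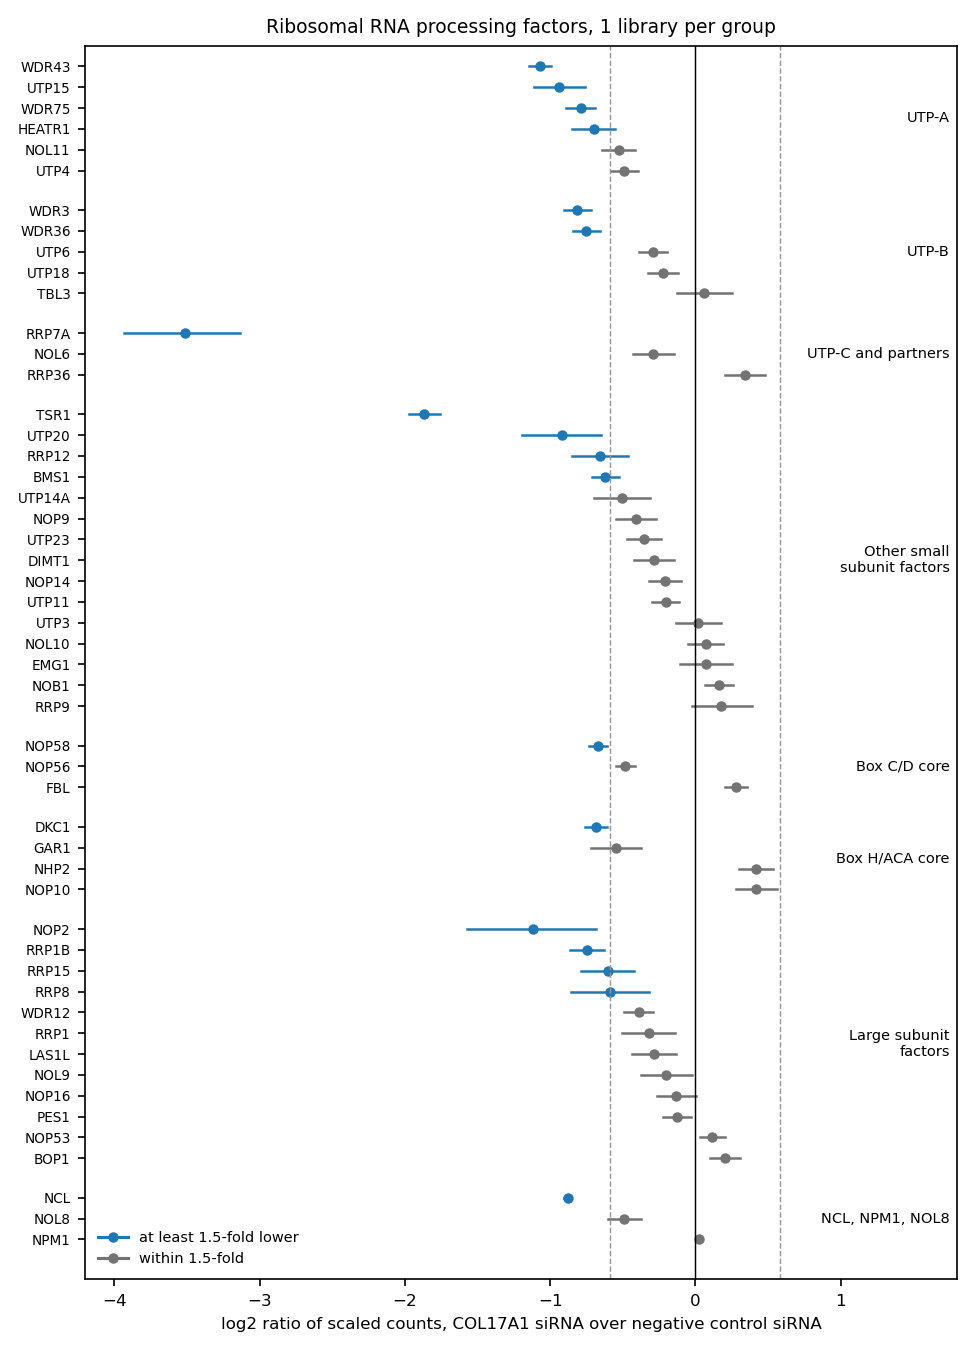
Log2 ratio of scaled counts, COL17A1 siRNA over negative control siRNA (horizontal axis), of each of the 51 factors, grouped by role. Points are the ratios of 1 library per group, bars are exact 95% counting intervals and dashed lines mark 1.5-fold; 18 factors are at least 1.5-fold lower, with RRP7A at -3.51 and TSR1 at -1.87 farthest from 0.

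Exonic size and GC content moved with these ratios. Across the 51 factors Spearman's rho of the log2 ratio was -0.40 with exonic size and 0.43 with GC content, beside -0.38 and 0.37 over 13258 tested genes with a GC content. Genes in one library share its depth and composition, so these values are a description. Split by size, 13 of 28 factors at or over the median size of 5182 bases were lower, beside 16.7% of tested genes of that size, and 5 of 23 smaller factors were lower, beside 6.71%. After subtraction of a linear fit on size, GC content and abundance, 11 factors were lower and 0 higher, beside 9.04% of tested genes lower and 8.03% higher, and their median was -0.34. RRP7A, TSR1, NOP2, WDR43, RRP1B, RRP12, NCL, UTP15, UTP20 and NOP58 were called both before and after this adjustment, and GAR1 after it alone. WDR3, WDR75, WDR36, HEATR1, DKC1, BMS1, RRP15 and RRP8 lay within 1.5-fold after it, and WDR75 and DKC1 lay nearest to that limit at -0.57 and -0.55.

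**Figure D2:**
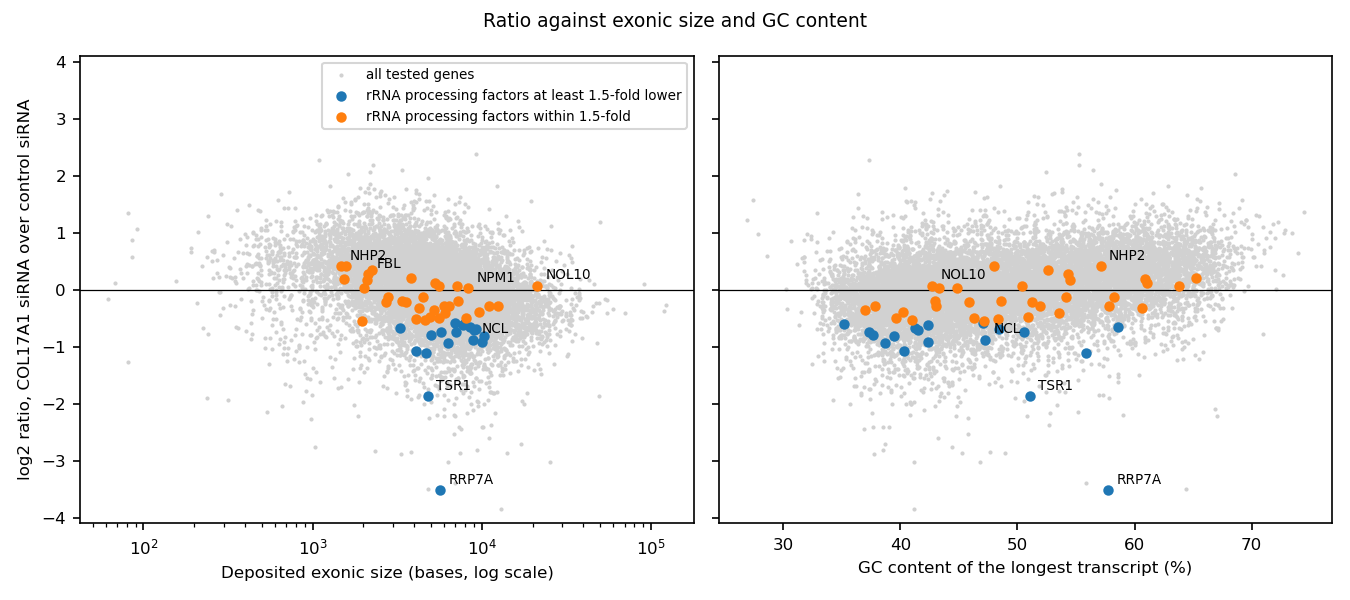
Log2 ratio, COL17A1 siRNA over control siRNA (vertical axes), against deposited exonic size in bases on a log axis (left) and against transcript GC content in percent (right). Grey points are all tested genes, blue points the 18 factors at least 1.5-fold lower and orange points the other 33; large, low-GC genes lie lower in grey and in colour alike.

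**Figure D3:**
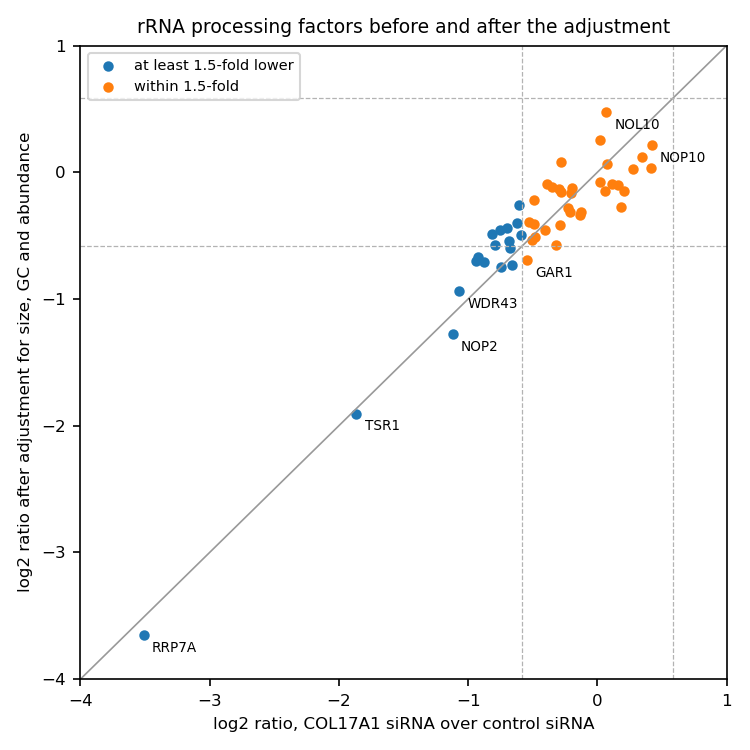
Log2 ratio, COL17A1 siRNA over control siRNA, of each factor before (horizontal axis) and after (vertical axis) subtraction of a linear fit on exonic size, GC content and abundance; 1 library per group. The solid line marks equal values and dashed lines 1.5-fold; RRP7A, TSR1 and NOP2 stay lowest at -3.65, -1.91 and -1.28, and GAR1 passes the lower line after the adjustment.

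The promoters of these genes were searched for CACGTG, the palindromic E-box that MYC family proteins bind, because the factors are widely described as MYC targets. Promoters of 250 bases before to 50 after the transcription start were taken from RefSeq (GRCh38.p14), and 45 of the 51 factors matched by symbol. The letters CACGTG stood in 14 of the 45, or 31.1%, beside 12.6% of the 10068 tested genes that matched and 8.77% of all 27305 genes of the promoter table. Factors with the letters had a median log2 ratio of -0.39 and those without had -0.39. Called lower were 3 of 14 with and 12 of 31 without the letters, beside 11.7% of all tested genes. The tested genes were not split by the letters, so these 2 counts have no background of their own. The presence of the letters is a description of the sequence and says nothing of binding in these cells. The RNA of MYC, a member of that family, was at 582 CPM in COL17A1 siRNA cells and 627 CPM in control cells, a log2 ratio of -0.11. MYC protein was not measured, and a part of MYC in the ratios was not tested.

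The windows below, with CACGTG in capitals, are shown for factors that span the ratios of the 14, from NOP2 at -1.12 to NOP10 at 0.42. They are 30 bases each, on the strand of the gene. NOP2 lies at chr12:6568242-6568271 (minus), WDR43 at chr2:28894658-28894687 (plus), UTP20 at chr12:101280083-101280112 (plus), RRP9 at chr3:51941892-51941921 (minus), FBL at chr19:39846356-39846385 (minus) and the start-proximal window of NOP10 at chr15:34343130-34343159 (minus).
NOP2: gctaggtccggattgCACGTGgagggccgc
WDR43: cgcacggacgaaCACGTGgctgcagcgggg
UTP20: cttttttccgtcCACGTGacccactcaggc
RRP9: gggttcagctgcCACGTGagttctgcggcc
FBL: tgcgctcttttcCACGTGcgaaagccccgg
NOP10: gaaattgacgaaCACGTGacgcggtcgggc
In all 6 the first base of the motif lies within 36 bases of the annotated start, before it in UTP20, RRP9 and NOP10 and after it in NOP2, WDR43 and FBL.

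The UTP-A subcomplex, which binds the start of the nascent precursor and links processing to its transcription, had the lowest median of the 8 role classes before the adjustment. After it the medians of UTP-A and of the box C/D core were both -0.51. Then 2 UTP-A members were called lower, beside 9.04% of tested genes. Before the adjustment all 6 members had intervals below 0, around a median of -0.75, and 4 were called lower, beside 11.7% of all tested genes. WDR43, a WD-repeat subunit, had 2402 counts (110 CPM) in COL17A1 siRNA cells, against 3635 (231 CPM) in control cells. Its log2 ratio was -1.07 (-1.15 to -0.997), and its E-box window is printed above. UTP15 had 454 counts (20.7 CPM) in COL17A1 siRNA cells, against 626 (39.7 CPM) in control cells, a log2 ratio of -0.94 (-1.11 to -0.76). Both genes were lower before and after the adjustment. WDR75 had 1556 counts (71.1 CPM) in COL17A1 siRNA cells, against 1939 (123 CPM) in control cells, a log2 ratio of -0.79 (-0.89 to -0.69). HEATR1, a large helical-repeat subunit, had 683 counts (31.2 CPM) in COL17A1 siRNA cells, against 799 (50.7 CPM) in control cells, a log2 ratio of -0.70 (-0.85 to -0.55). After the adjustment WDR75 was at -0.57 and HEATR1 at -0.44. NOL11 and UTP4, which bind each other, were at -0.53 and -0.49, within 1.5-fold. UTP4 shares its strand with the overlapping gene SNTB2, which was at -0.47, and UTP15 and HEATR1 overlap ANKRA2 and LGALS8 on the opposite strand, which were at 0.09 and 0.10.

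The UTP-B subcomplex joins the precursor after UTP-A and contacts U3 RNA. Of its 5 members among the listed factors 2 were lower, beside 11.7% of all tested genes, and 0 after the adjustment, beside 9.04%. The UTP-B subunit gene PWP2 is not among these 5 and is described below with the small subunit partners. It was lower at -0.94 (-1.41 to -0.48), and at -1.10 after the adjustment. WDR3 had 1716 counts (78.4 CPM) in COL17A1 siRNA cells, against 2171 (138 CPM) in control cells, a log2 ratio of -0.81 (-0.91 to -0.72). WDR36 had 1645 counts (75.1 CPM) in COL17A1 siRNA cells, against 1993 (126 CPM) in control cells, a log2 ratio of -0.75 (-0.85 to -0.66). Both were within 1.5-fold after the adjustment, at -0.49 and -0.46. UTP18 had the highest FPKM of the subcomplex, 29.5 in COL17A1 siRNA cells and 33.6 in control cells. FPKM are counts scaled by library total and deposited exonic size, so the order of genes by FPKM depends on that size. UTP18 had 1724 counts (78.7 CPM) in COL17A1 siRNA cells and 1451 (92.0 CPM) in control cells, with a log2 ratio of -0.23 (-0.33 to -0.12). UTP6 was at -0.30, and TBL3 was at 0.06 with an interval that spanned 0, and at -0.15 after the adjustment.

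RRP7A, the small subunit factor that sits with NOL6 in the UTP-C module, had the lowest ratio of the 51. The gene (ENSG00000189306, GRCh38 chr22:42508344-42519796, minus strand) had 60 counts (2.74 CPM) in COL17A1 siRNA cells, against 496 (31.5 CPM) in control cells. This is a log2 ratio of -3.51 (-3.93 to -3.13), or 11.4-fold lower, while COL17A1 was 10.5-fold lower. Its nonfunctional copy RRP7BP had 45 counts in COL17A1 siRNA cells, against 94 in control cells, a log2 ratio of -1.53 (-2.08 to -1.01), and reads that could belong to either leave the count of RRP7A uncertain. Both partners lay within 1.5-fold. NOL6, the counterpart of yeast Utp22, had 851 counts (38.9 CPM) in COL17A1 siRNA cells and 749 (47.5 CPM) in control cells, a log2 ratio of -0.29 (-0.43 to -0.15). RRP36 had 1220 counts (55.7 CPM) in COL17A1 siRNA cells and 693 (44.0 CPM) in control cells, a log2 ratio of 0.34 (0.21 to 0.48). RRP36 had the highest FPKM of the module, 25.3 in COL17A1 siRNA cells and 19.4 in control cells.

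Among 15 other small subunit factors 4 were lower and 0 higher, beside 11.7% of all tested genes lower and 12.2% higher. Their median log2 ratio was -0.29, and 3 were lower after the adjustment, beside 9.04% of tested genes. TSR1, a GTPase-like factor of late small subunit maturation in the cytoplasm, had the second lowest ratio of all 51. The gene (GRCh38 chr17:2322396-2336657, minus strand, with 2 snoRNA genes inside) had 984 counts (44.9 CPM) in COL17A1 siRNA cells, against 2585 (164 CPM) in control cells. Its log2 ratio was -1.87 (-1.97 to -1.76), and its FPKM ranked 29 among the factors in COL17A1 siRNA cells and 9 in control cells. UTP20, a giant scaffold, had 197 counts (9.0 CPM) in COL17A1 siRNA cells, against 269 (17.1 CPM) in control cells, a log2 ratio of -0.92 (-1.20 to -0.65). RRP12, an export factor of the pre-40S particle, was lower too. It had 426 counts (19.5 CPM) in COL17A1 siRNA cells, against 484 (30.7 CPM) in control cells, a log2 ratio of -0.66 (-0.85 to -0.47). BMS1, a GTPase of the processome, had 1856 counts (84.8 CPM) in COL17A1 siRNA cells, against 2055 (130 CPM) in control cells, a log2 ratio of -0.62 (-0.71 to -0.53). BMS1 was within 1.5-fold by total counts and at -0.40 after the adjustment, and its 20 named copies summed to 194 counts in COL17A1 siRNA cells and 198 in control cells.

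The remaining 11 small subunit factors lay between -0.51 and 0.18. UTP14A, which activates a helicase of the processome, was at -0.51, the RNA-binding protein gene NOP9 at -0.41 and UTP23 at -0.35. DIMT1, which dimethylates adenosines of 18S RNA, was at -0.29, the processome protein gene NOP14 at -0.21 and UTP11 at -0.21. UTP23 overlaps RAD21 and EIF3H on the opposite strand, which were at -0.58 and 0.26. RAD21 had 18109 counts in COL17A1 siRNA cells and 19495 in control cells, against 1306 and 1202 for UTP23. DIMT1 overlaps KIF2A on the opposite strand, which was at -0.50. The strand setting of the counting was not stated, so the ratios of UTP23 and DIMT1 are uncertain. UTP3, NOL10 and EMG1, the last a methyltransferase of 18S RNA, were at 0.02, 0.07 and 0.07, each with an interval that spanned 0. NOL10 was at 0.47 after the adjustment, within 1.5-fold. RRP9, a U3-specific protein, was at 0.18, also with an interval that spanned 0. NOB1, the endonuclease that frees the 3' end of 18S RNA, had the highest FPKM of the group, 47.0 in COL17A1 siRNA cells and 40.9 in control cells. It had 2134 counts (97.5 CPM) in COL17A1 siRNA cells and 1373 (87.1 CPM) in control cells, a log2 ratio of 0.16 (0.06 to 0.26). The adjustment turned the sign of NOB1 to -0.10, of RRP9 to -0.28, of UTP3 to -0.08 and of DIMT1 to 0.08, so none of these directions holds under both.

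**Figure D4:**
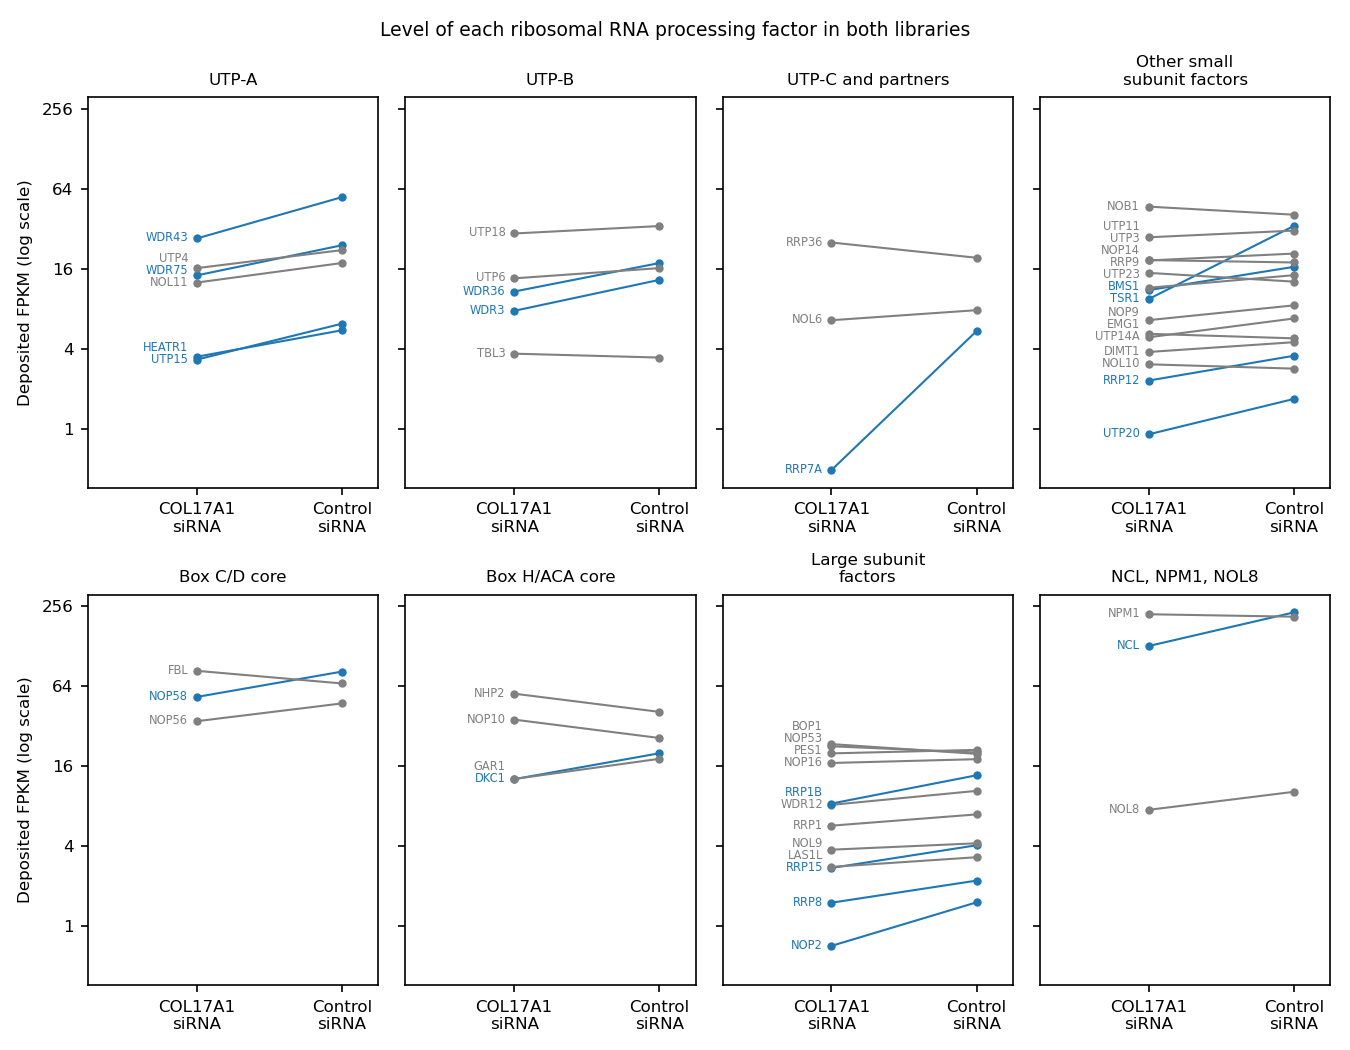
Deposited FPKM of each factor on a log axis, in 8 panels by role, with the COL17A1 siRNA library on the left and the control library on the right of each line. Blue lines are the 18 factors at least 1.5-fold lower; RRP7A and TSR1 have the steepest lines, and the snoRNP panels hold lines of both slopes.

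The snoRNP cores held members on both sides of 0. In the box C/D core NOP58 and NOP56, the scaffold proteins, pair with each other. NOP58 had 3751 counts (171 CPM) in COL17A1 siRNA cells, against 4306 (273 CPM) in control cells, and NOP56 had 3726 counts (170 CPM) in COL17A1 siRNA cells and 3751 (238 CPM) in control cells. NOP58 was called lower at -0.67 (-0.74 to -0.61), and NOP56 was within 1.5-fold at -0.48 (-0.55 to -0.42). FBL, fibrillarin, the methyltransferase of the particle, had 83.4 FPKM in COL17A1 siRNA cells and 67.0 FPKM in control cells, while NOP58 had 53.0 FPKM in COL17A1 siRNA cells and 82.3 FPKM in control cells. FBL thus had the highest FPKM of the core in COL17A1 siRNA cells, and NOP58 in control cells. FBL had 3853 counts (176 CPM) in COL17A1 siRNA cells and 2289 (145 CPM) in control cells, a log2 ratio of 0.28 (0.20 to 0.35). In the box H/ACA core DKC1, dyskerin, the pseudouridine synthase, had 2535 counts (116 CPM) in COL17A1 siRNA cells, against 2937 (186 CPM) in control cells, a log2 ratio of -0.69 (-0.76 to -0.61), and -0.55 after the adjustment. GAR1 was at -0.54, and at -0.69 after the adjustment. NHP2, the RNA-binding subunit with the highest FPKM of the core, 56.1 in COL17A1 siRNA cells and 41.0 in control cells, had 1790 counts (81.8 CPM) in COL17A1 siRNA cells and 966 (61.3 CPM) in control cells, a log2 ratio of 0.42 (0.30 to 0.53). NOP10, a small subunit that binds dyskerin, had 1219 counts (55.7 CPM) in COL17A1 siRNA cells and 656 (41.6 CPM) in control cells, a log2 ratio of 0.42 (0.28 to 0.56). Both lay within 1.5-fold. After the adjustment FBL, NHP2 and NOP10 were at 0.02, 0.03 and 0.21.

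Of 12 large subunit factors 4 were lower and 0 higher, beside 11.7% of all tested genes lower and 12.2% higher. Their median log2 ratio was -0.30, and 2 were lower after the adjustment, beside 9.04% of tested genes. NOP2, a 5-methylcytosine methyltransferase of 28S RNA, had 72 counts (3.29 CPM) in COL17A1 siRNA cells, against 113 (7.17 CPM) in control cells, a log2 ratio of -1.12 (-1.57 to -0.68). Its 0.71 FPKM was the lowest but for RRP7A in COL17A1 siRNA cells, and its 1.51 FPKM was the lowest of the 51 in control cells. RRP1B, a partner of protein phosphatase 1 in the nucleolus, had 1038 counts (47.4 CPM) in COL17A1 siRNA cells, against 1254 (79.5 CPM) in control cells, a log2 ratio of -0.75 (-0.87 to -0.63). Its paralog RRP1 was at -0.32. RRP15 had 467 counts (21.3 CPM) in COL17A1 siRNA cells, against 511 (32.4 CPM) in control cells, a log2 ratio of -0.60 (-0.79 to -0.42). RRP8, a methyltransferase of 28S RNA, had 224 counts (10.2 CPM) in COL17A1 siRNA cells, against 243 (15.4 CPM) in control cells, a log2 ratio of -0.59 (-0.86 to -0.32). These 2 lay just past 1.5-fold, and both were within it by total counts and after the adjustment, at -0.26 and -0.50.

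Pes1, Bop1 and Wdr12 form the PeBoW complex of large subunit assembly in mammals, and none of their genes was called. PES1 had 1951 counts (89.1 CPM) in COL17A1 siRNA cells and 1534 (97.3 CPM) in control cells, a log2 ratio of -0.13 (-0.22 to -0.03). BOP1, with the highest FPKM of the large subunit factors in COL17A1 siRNA cells, 23.4 against 19.8 in control cells, had 1943 counts (88.7 CPM) in COL17A1 siRNA cells and 1214 (77.0 CPM) in control cells, a log2 ratio of 0.20 (0.10 to 0.31), but -0.15 after the adjustment. WDR12 was at -0.39 (-0.49 to -0.29). LAS1L and NOL9, the nuclease and the kinase that process the second internal spacer, were at -0.28 and -0.20. NOP16 was at -0.13, and NOP53, which brings the exosome to the large subunit precursor, at 0.12, but at -0.09 after the adjustment. NOP16 overlaps HIGD2A and ARL10 on the opposite strand, which were at 0.57 and -0.29.

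The 2 factors with the highest FPKM, NCL and NPM1, had unlike ratios. Their counting intervals did not overlap, but these are narrow at such high counts and leave out variation between cultures. NCL, nucleolin, had 24713 counts (1129 CPM) in COL17A1 siRNA cells, against 32722 (2075 CPM) in control cells, or 128 and 230 FPKM, a log2 ratio of -0.88 (-0.90 to -0.85). NPM1, nucleophosmin, had 39912 counts (1823 CPM) in COL17A1 siRNA cells, against 28293 (1795 CPM) in control cells, or 222 and 213 FPKM, a log2 ratio of 0.02 (0.00 to 0.04). NPM1 thus had the highest FPKM of the 51 in COL17A1 siRNA cells, and NCL in control cells. After the adjustment the log2 ratios were -0.71 for NCL and 0.26 for NPM1. NPM1 has 49 named copies, which together held 747 counts in COL17A1 siRNA cells and 541 in control cells. NOL8, a less abundant nucleolar RNA-binding protein, was at -0.49.

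Many human snoRNAs are made from introns, so that a gene of a processing factor can also be the source of guide RNAs. GENCODE release 29 places at least 1 snoRNA gene on the same strand inside 8 of the 51, namely TSR1, WDR43, NCL, DKC1, NOP58, NOL11, NOP56 and NOP53. Of these 8, 5 were lower, beside 19.4% of 232 tested genes of this kind, and 13 of the other 43 factors were lower, beside 11.6% of 13143 tested genes with no snoRNA gene inside. The median log2 ratio was -0.68 in the 8 factors, against -0.08 in the 232 genes.

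The 7-base words GCTAATG and TCGGAGA were found in an earlier description of these libraries as marks of 3' untranslated regions whose genes were lower or higher, so their presence here supports nothing further. GCTAATG stood in the longest annotated 3' untranslated region of 2 of 51 factors, UTP15 and HEATR1, or 3.92%, beside 8.5% of 11676 tested genes with such a region. TCGGAGA stood in 2 factors, NOL9 and NOP10, beside 2.19% of tested genes. Neither word stood in this region of RRP7A, TSR1, NOP2, WDR43 or NCL. Coding sequences, other transcript forms and partial matches were not searched, so an effect of the siRNA on these genes through its own sequence was not tested. The 4 sites are printed from GENCODE transcripts (GRCh38), word in capitals, to show the context of the 2 lower factors with the first word and of the 2 uncalled factors with the second. They lie at chr5:73582946-73582974 (plus) in UTP15, chr1:236549188-236549216 (minus) in HEATR1, chr1:6523704-6523732 (minus) in NOL9 and chr15:34341909-34341937 (minus) in NOP10.
UTP15: ggaaggtttatGCTAATGgggtcaagcat
HEATR1: tgatctcagttGCTAATGatgatggacta
NOL9: gggaaggaggtTCGGAGAcagggagccaa
NOP10: cctgttaccccTCGGAGActccgtaacca
Without the 4 genes that hold a word, 16 of 47 factors were lower and 0 higher. Of the 12155 tested genes left without a word, 9.65% were lower and 12.7% higher.

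Other genes of ribosome production were lower in part. Of 94 such genes outside the 51, all tested, 18 were lower and 1 was higher, beside 11.7% of all tested genes lower and 12.2% higher, and the median was -0.30. After the adjustment 15 were lower and 3 higher, beside 9.04% lower and 8.03% higher. Of 32 partners in the large subunit pathway 9 were lower and 0 higher, with SDAD1 at -1.51 (-1.66 to -1.37), URB2 at -1.16, the GTPase gene GNL3, nucleostemin, at -0.98, MYBBP1A at -0.83 and URB1 at -0.69. Of 25 small subunit partners 5 were lower, with ESF1 at -1.04, PDCD11, the counterpart of yeast Rrp5, at -1.02, the UTP-B subunit gene PWP2 at -0.94 and KRR1 at -0.60, and IMP3, a U3-associated protein gene, was higher at 0.97 (0.70 to 1.26). Among 15 genes of RNA polymerase I and its factors were 3 lower ones and none higher, with the polymerase subunit genes POLR1F at -1.42 (-1.57 to -1.27), POLR1A at -0.82 and POLR1B at -0.61, while POLR1D, shared with RNA polymerase III, was within 1.5-fold at 0.54. Of 14 genes of the RNA exosome and its cofactors 1 was lower and 0 higher, the nuclease gene DIS3 at -0.67, while the helicase gene MTREX was at -0.55 and C1D at 0.48, around a median of 0.14. The 1 lower gene is a share of 7.14%, beside 11.7% of all tested genes, and after the adjustment 0 were lower and 1 was higher. The adjustment put KRR1 at -0.20, POLR1B at -0.41 and DIS3 at -0.33, all within 1.5-fold, and POLR1D past it at 0.74. The other called genes named in these lists kept their calls. Of 7 genes of snoRNP assembly and nucleolar scaffolds 0 were called, with NAF1, an assembly factor of H/ACA particles, at -0.55, the chaperone gene RUVBL1 at -0.38 and the scaffold gene TCOF1, treacle, at -0.32.

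**Figure D5:**
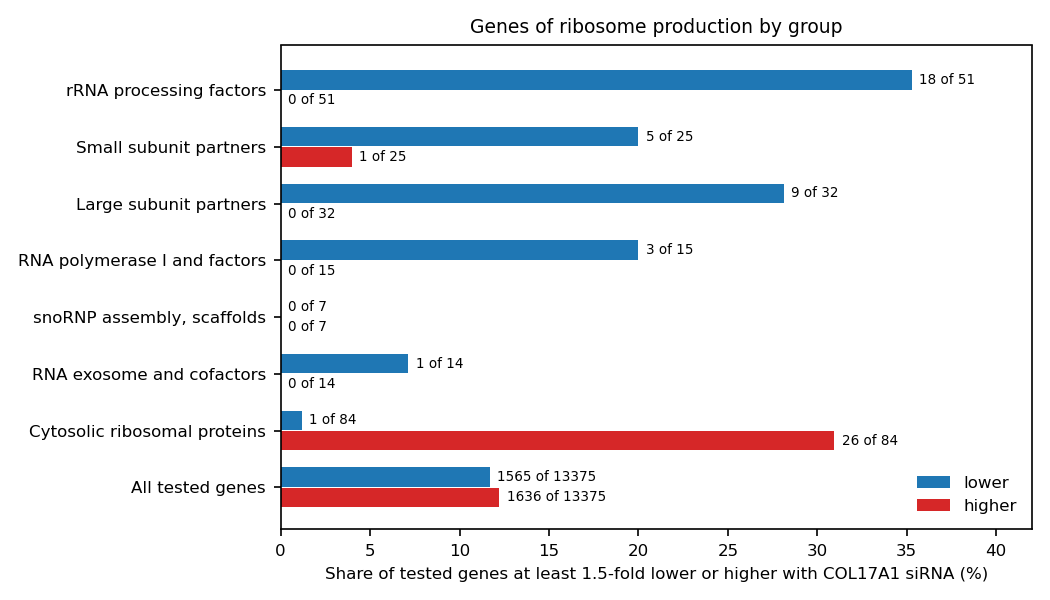
Share of tested genes (horizontal axis, percent) at least 1.5-fold lower (blue) or higher (red) in COL17A1 siRNA cells, for the 51 processing factors, 5 other gene groups of ribosome production, cytosolic ribosomal protein genes and all tested genes. Of the processing factors 18 of 51 are lower and 0 higher, and of ribosomal protein genes 1 of 84 is lower and 26 are higher.

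The processing factors and the ribosomal proteins whose assembly they serve had medians of opposite sign. Of 84 tested cytosolic ribosomal protein genes 26 were called higher, beside 12.2% of all tested genes and 18.9% of those under the median size. The 84 held 1 lower gene, beside 11.7% of all tested genes lower, and had a median log2 ratio of 0.47. After the adjustment 17 were higher and 1 lower, beside 8.03% of tested genes higher and 9.04% lower. The median exonic size was 5575 bases for the processing factors, against 3208 bases for the ribosomal protein genes. After the adjustment the medians were -0.34 for processing factors and 0.41 for ribosomal protein genes. The part of exonic size in this contrast was not tested further, and ribosomal protein genes have many processed copies, so their counts are uncertain. CACGTG stood in 14 of 45 matched promoters of the processing factors, against 5 of 70, or 7.14%, of the ribosomal protein genes. It stood in 26 of 79 matched promoters, or 32.9%, of the 94 other genes of ribosome production, beside 31.1% for the processing factors.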

How the data were processed

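The authors deposited 1 table with a raw count per gene and library, and FPKM values per the file headers, which equalled the count over deposited exonic size and library total within 0.0051 for 100% of values. The submitters' processing notes name the tools STAR, HISAT2 and edgeR, and hg38 and GRCh38 as builds. Versions, roles, the strand setting of the counting and its annotation were not stated there, so reads of overlapping genes cannot be told apart. Per the labels' protocols, oligo(dT)-selected RNA went into a TruSeq Stranded kit or its like.

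Libraries were grouped by labelled treatment. Counts were scaled with TMM factors of 1.01 (COL17A1 siRNA) and 0.987 (control; edgeR 4.0.16, R 4.3.3), and log2 ratios, COL17A1 siRNA over control, were taken after adding 0.5 to each count. Exact Clopper-Pearson 95% intervals came from both counts, and no p-value was computed. A count of 0 allows up to 0.137 CPM in COL17A1 siRNA cells and 0.19 CPM in control cells, taking 3 counts as the limit. Without molecular identifiers reads are not independent molecules, so intervals and limits cover counting error only. Of 24705 genes with a count, the 13375 with a mean of 1 CPM or more were tested. GC content (99.1% of tested genes), snoRNA genes and 3' untranslated regions of at least 50 bases came from GENCODE 29 by gene identifier. In the fit of the adjustment ratios were capped at 3 in size. The steps were tested on simulated counts that held counting error only, so that test does not bear on variation between cultures. Python 3.11.15, numpy 2.4.6, scipy 1.17.1 and pandas 2.3.3 were used.

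The genes named are COL17A1, all 51 factors and, of each other list of ribosome production, those at least 2-fold apart and up to 3 others whose interval stayed farthest from a ratio of 1. Factors, lists and 3' words were chosen with earlier results of these data known. The alternatives were total counts or DESeq2 1.42.0 size factors for scaling, an offset of 2, ratios of deposited FPKM values plus 0.1, other filters, a 2-fold rule, an assumed coefficient of variation of 0.2, the adjustment, and leaving out factors with a 3' word or with named copies.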

Additional observations from a re-analysis of the deposited data

How the results depend on the processing

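No factor was called higher under any of the 11 alternatives, and no factor called lower changed its sign. Of the 33 uncalled factors, 7 changed sign after the adjustment: BOP1 at -0.15, NOB1 at -0.10, NOP53 at -0.09, RRP9 at -0.28, TBL3 at -0.15 and UTP3 at -0.08 were above 0 before it, and DIMT1 at 0.08 was below 0. The count of 18 lower factors became 8 with an assumed coefficient of variation of 0.2 between cultures (5.35% of all tested genes lower). It was 11 after the adjustment for size, GC content and abundance (9.04% of tested genes lower), and 4 at 2-fold (3.6%). The 8 were RRP7A, TSR1, NOP2, WDR43, UTP15, UTP20, NCL and WDR3. The count was 15 with total counts (10.4% of all tested genes lower), which moved the median of all tested genes to 0.07. With the deposited FPKM it was 15 (9.59%). Without factors that have named copies it was 15 of 42 (11.7%), and without 3' word genes 16 of 47 (9.65%). It stayed at 18 with DESeq2 size factors (12.5%), an offset of 2 (11.7%), no filter (7.69%) and a mean of at least 5 CPM (11.7%). The median of the factors ranged from -0.41 with DESeq2 size factors to -0.34 after the adjustment. The adjustment moved 31 of 51 single ratios outside their counting intervals. No paired analysis was possible because each group has 1 library, and for the same reason no library could be left out. Depth limits RRP7A and NOP2 most, with 60 and 72 counts in COL17A1 siRNA cells, and variation between cultures was not measured.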
